A study of Mus musculus with 6 samples.

Results

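The 47 genes described here encode the contractile machinery of heart, skeletal and smooth muscle: actins, myosin heavy and light chains, troponins and tropomyosins, titin and its partners, proteins of the Z-disc and the calcium store. They were chosen by name, for what they encode, and with earlier results of these data known. They make up 47 of the 18193 genes that the arrays measured with at least 1 probe set of their own. RNA was measured in cells freshly taken from mouse embryos of mixed background at embryonic day 9.5 and sorted as CD31+/CD41-/CD45-, a gate for an endothelial marker and against markers of blood cells. The groups were the heart tube, the caudal-half tissue of the embryo and the yolk sac, with 2 independent biological replicates each and 1 array per replicate (6 arrays). No group carried a mutation or a treatment in the labels, and how many embryos lay behind an array is not stated in the sources used here. The comparisons ask how far the muscle genes differ between the sorted cells of these tissues.

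In striated muscle the sarcomere is the repeating unit of contraction: actin filaments anchored at the Z-disc slide past myosin filaments held at the M-band, titin spans from the Z-disc to the M-band, and calcium binding to the troponin complex on tropomyosin frees actin for myosin. Smooth muscle has no sarcomeres and switches its myosin on through phosphorylation of the light chain. The heart is the first organ of the embryo to contract, and the young heart uses several genes, such as slow skeletal troponin I and smooth muscle actin, that are named for other muscles. Endothelial cells carry smooth muscle actin-binding proteins at varying levels but are not known for sarcomeres.

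Each level below is the natural log of the deposited signal, read as the authors' RMA value on a log2 scale, so that a difference of 1 is a doubling on that reading. If the deposited signals were linear instead, each difference and its standard error would be larger by a factor of 1.44, with the same p. A gene is represented by its probe set with the highest mean over the 6 arrays, and levels of different genes cannot be ranked against each other, since each probe set has its own brightness. A weak signal is described against the 27 probe sets for bacterial RNAs, which read between 1.33 and 4.03. Where a pair of differences is given for the heart tube, the first is against the caudal-half tissue and the second against the yolk sac. Differences come from limma, with the standard error (SE), and a gene is called where the p adjusted by Benjamini-Hochberg over all 18193 genes is under 0.05. In bulk RNA, fewer cells of a type and less RNA per cell cannot be told apart.

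Promoter sequence shows what some members share that the arrays did not measure. RefSeq windows of 300 bases around the start site (build GRCm38.p6, 250 bases before it and 50 after) were found for 37 of the 47 genes, 47 windows in all. The CArG box, the site by which serum response factor is known to drive muscle genes, was searched by its consensus on both strands. It was present in 9 of the 47 member windows (19.1%), against 1.63% of all 32851 windows. These 9 windows belonged to 8 genes: Actc1, Acta1, Myl3, Myl7, Myl9, Ldb3, Myom1 and Nebl. The 250 bases before the start site follow, 5′ to 3′ on the gene's strand, for 4 of them, with the CArG box in capitals. They were picked after their levels were seen, because the same kind of box stood in genes that were high in heart tube cells (Myl7, and Actc1 against the yolk sac), high in caudal-half cells (Myl9) or called in no comparison (Acta1).
Actc1, chr2:114052876-114053125, minus strand: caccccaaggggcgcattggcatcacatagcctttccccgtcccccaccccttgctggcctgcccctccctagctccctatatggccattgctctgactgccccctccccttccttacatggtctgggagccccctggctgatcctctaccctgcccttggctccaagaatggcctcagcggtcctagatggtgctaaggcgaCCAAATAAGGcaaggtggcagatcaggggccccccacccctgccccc
Acta1, chr8:123894776-123895025, minus strand: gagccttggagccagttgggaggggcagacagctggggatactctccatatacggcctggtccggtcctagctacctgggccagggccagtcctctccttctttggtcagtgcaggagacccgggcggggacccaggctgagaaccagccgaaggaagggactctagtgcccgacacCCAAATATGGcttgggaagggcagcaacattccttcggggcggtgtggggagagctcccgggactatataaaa
Myl7, chr11:5898783-5899032, minus strand: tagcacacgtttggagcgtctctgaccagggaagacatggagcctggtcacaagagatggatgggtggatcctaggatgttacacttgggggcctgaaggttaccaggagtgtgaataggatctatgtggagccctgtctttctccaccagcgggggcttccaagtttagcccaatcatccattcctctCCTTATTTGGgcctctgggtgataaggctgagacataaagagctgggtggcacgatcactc
Myl9, chr2:156775214-156775463, plus strand: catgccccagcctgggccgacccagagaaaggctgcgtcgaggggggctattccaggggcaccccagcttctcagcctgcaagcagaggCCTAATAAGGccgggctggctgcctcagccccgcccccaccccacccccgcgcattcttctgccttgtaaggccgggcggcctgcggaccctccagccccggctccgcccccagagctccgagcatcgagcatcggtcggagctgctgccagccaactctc
The box began 47 bases before the start site in Actc1, 73 in Acta1, 61 in Myl7 and 161 in Myl9. A match is a description of these letters and not a binding site.

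The other motifs, searched on both strands, were the MEF2 site by its consensus and 3 short words. The GATA motif was spelled GATAA, the E-box, bound by muscle and other helix-loop-helix factors, CANNTG, and the TEAD motif CATTCC. No 2 of the motifs overlapped in a member window. The MEF2 site was present in 8.51% of the member windows and 3.19% of all windows, in Ttn, Ccdc141, Mybpc3 and Casq2. The GATA motif was present in 34.0% against 25.4%, the E-box in 87.2% against 72.3%, and the TEAD motif in 29.8% against 14.7%. Of the 13 windows of the 10 genes that were higher in heart tube cells than in both other tissues, 1 held a CArG box (7.69%), 2 a MEF2 site (15.4%), 5 the GATA motif (38.5%), 6 the TEAD motif (46.2%) and all 13 an E-box.

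The sorted cells of the heart tube held higher levels of 10 of the 47 contractile genes than those of both other tissues. Of these 10, 6 were counted as cardiac, and 13 of the 19 cardiac members were not called against the caudal-half tissue. Against the caudal-half tissue, 10 of the 47 members were higher and 2 lower, with 35 not called. The background over all genes in this comparison was 2.86% called higher, 2.65% lower and 5.51% in either direction. Against the yolk sac, 16 members were higher and 4 lower, with 27 not called, where 5.14% of all genes were called higher, 6.67% lower and 11.8% either way. The caudal-half tissue had 6 members higher and 1 lower than the yolk sac, with 40 not called, against 4.22%, 4.86% and, either way, 9.08% of all genes. Each pair of these comparisons shares arrays, so they are not independent of one another. Earlier results of these data were known when the members were chosen, so the shares over all genes are given for scale only.

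The median difference of the members was 0.23 for the heart tube against the caudal-half tissue, where that of all genes was -0.08. It was 0.48 against the yolk sac, with -0.06 for all genes, and 0.07 between caudal-half tissue and yolk sac, with 0.02 for all genes. Of the members, 23 were called in at least 1 comparison and 24 in none. The heart tube exceeded both other tissues in 10 genes: Myh6, Myh7, Myl2, Myl7, Tnnc1, Tnni1, Ttn, Des, Pdlim3 and Ccdc141. Pdlim5 was lower in heart tube cells than in both, Myl9 was higher in caudal-half cells than in both, and Nebl was higher in yolk sac cells than in both. In Tnnt2, Pdlim3 and Ankrd1 the yolk sac was below both embryonic tissues.

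**Figure D1:**
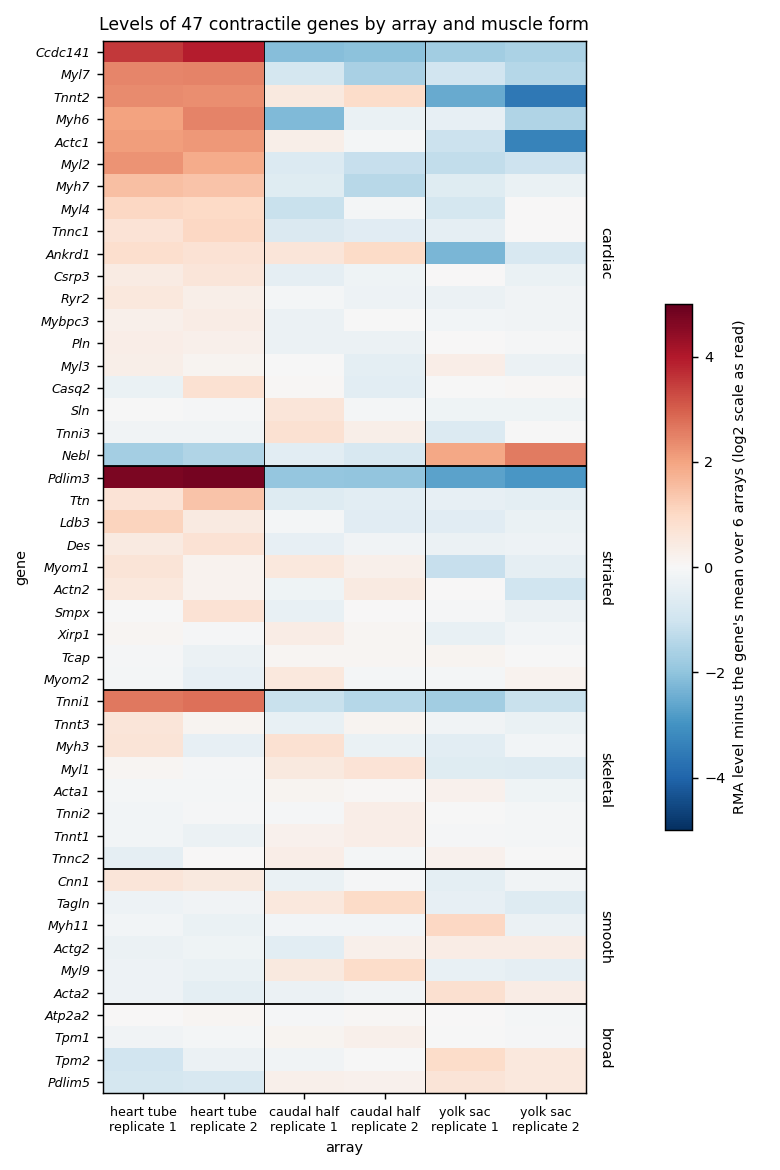
Level of each of the 47 members on each of the 6 arrays, as the difference from the gene's mean over all arrays on the scale read as log2. Genes are grouped by muscle form (cardiac, striated, skeletal, smooth and broad), and red is above and blue below that mean. Red blocks stand in the heart tube columns of Pdlim3, Ccdc141, Tnni1, Myl7 and Tnnt2, and in the yolk sac columns of Nebl.

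With 2 arrays per tissue, the counts moved with single arrays. Against the caudal-half tissue, the 12 called members fell to 7 without heart tube replicate 1, to 6 without heart tube replicate 2, to 6 without caudal-half replicate 1 and to 7 without caudal-half replicate 2. Against the yolk sac, the 20 called members fell to 9 without heart tube replicate 1 and to 12 without heart tube replicate 2 or yolk sac replicate 1. Between caudal-half tissue and yolk sac, the 7 called members fell to 2 without caudal-half replicate 2. Pdlim3, Ccdc141, Tnni1, Myl7 and Myl2 kept their calls in both heart tube comparisons in all alternatives run, as did Tnnt2, Nebl and Pdlim5 against the yolk sac and Myh7 against the caudal-half tissue. Of the 14 alternatives, taking log2 of the deposited value only rescales and cannot change a call, and the fit of 2 tissues and the fits without an array of the remaining tissue are the same test.

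Members were grouped mainly by the muscle that a protein is best known from. Ccdc141, described below only by its binding to myosin II and its gene's place next to Ttn, was counted as cardiac. It is among the higher calls of that group in both heart tube comparisons. The 19 cardiac members gave 6 higher calls and no lower one against the caudal-half tissue, with a median difference of 0.86. Against the yolk sac they gave 9 higher calls and 1 lower (Nebl), with a median of 1.07. Of the 10 members common to striated muscle, 3 were higher than in caudal-half cells and 5 higher than in yolk sac cells, with medians of 0.38 and 0.85. Of the 8 skeletal members, the same 1 gene, Tnni1, was called in both comparisons, with medians of -0.21 and 0.19. Of the 6 smooth muscle members, Myl9 was lower in heart tube cells than in caudal-half cells, and against the yolk sac Cnn1 was higher and Acta2 lower, with medians of -0.13 and -0.25. Of the 4 genes used in many cell types, Pdlim5 was lower in heart tube cells in both comparisons and Tpm2 lower against the yolk sac. For scale, 5.51% of all genes were called either way against the caudal-half tissue and 11.8% against the yolk sac. The medians of all genes were -0.08 and -0.06. Against the yolk sac, 1 call among 8 skeletal members is close to the share of all genes. In the groups of 4, 6 and 8 genes a single call is a large share, so their counts cannot rank the muscle forms.

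**Figure D2:**
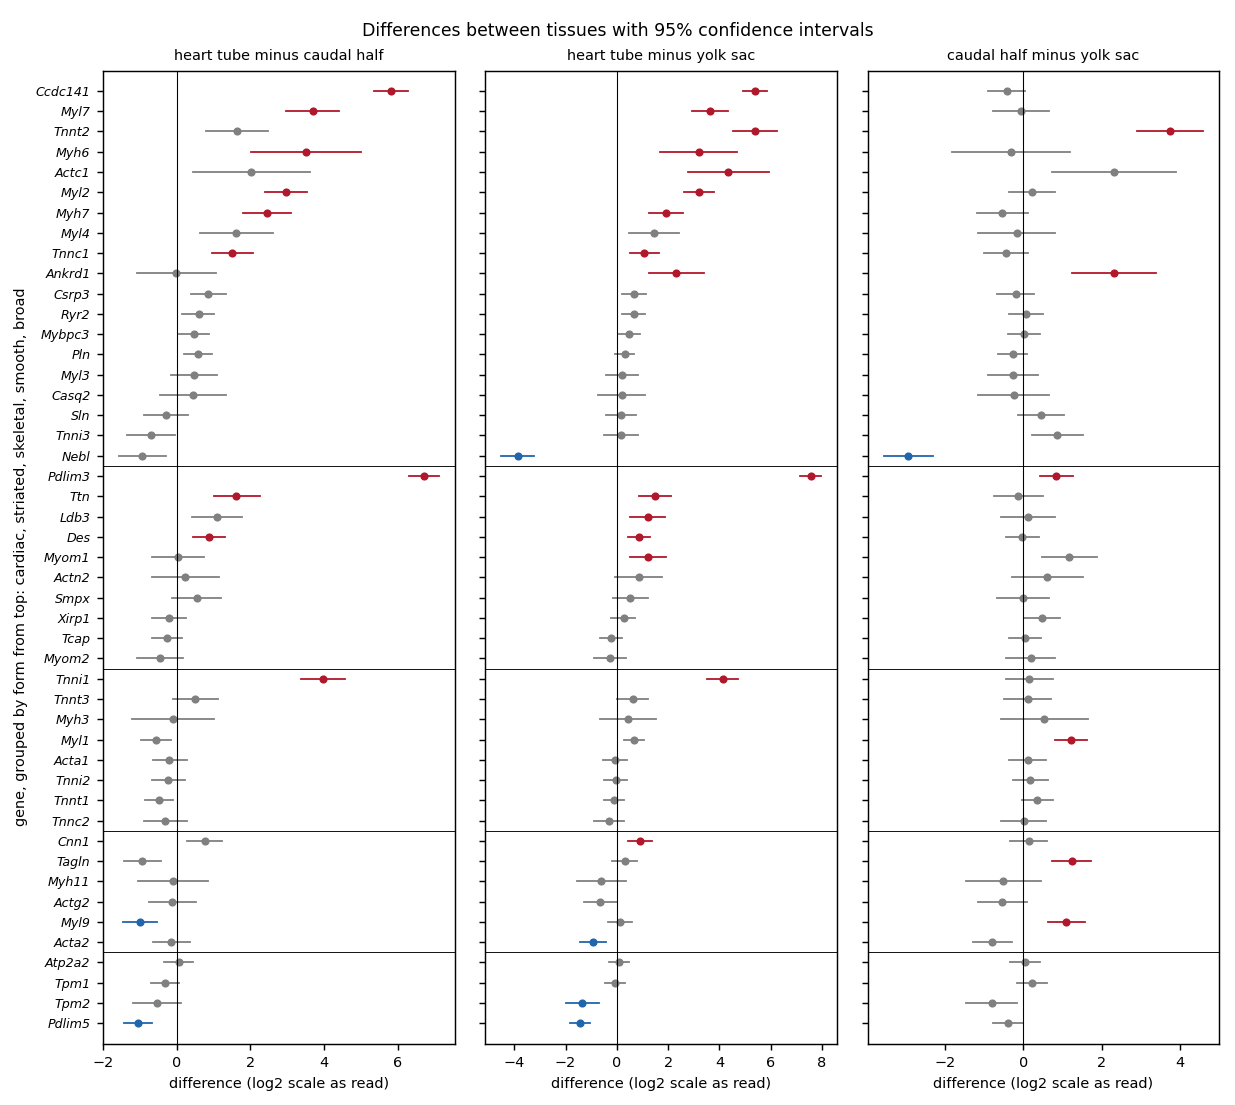
Differences of the 47 members between tissues, on the scale read as log2, with bars for the 95% confidence interval of limma; red is called higher in the first tissue, blue called lower and grey not called. The heart tube panels hold 10 and 16 red points, and the panel of caudal-half tissue against yolk sac holds 6.

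Actins form the thin filament. Actc1, the cardiac alpha-actin, stood at 9.02 and 9.09 in heart tube cells, 7.24 and 6.82 in caudal-half cells, and 5.84 and 3.58 in yolk sac cells. The tissues did not overlap, and the yolk sac replicates lay far apart. It was higher in heart tube cells than in yolk sac cells by 4.34 (SE 0.66, adjusted p = 0.00909), a call lost without heart tube replicate 1 or 2 (adjusted p = 0.0555 and 0.0554). The difference from the caudal-half tissue was 2.02 (SE 0.66, adjusted p = 0.159), and its 95% interval reached from 0.44 to 3.61. Fitted without the yolk sac arrays, or without either one, the same 2.02 had an adjusted p of 0.00858. Caudal-half tissue and yolk sac differed by 2.32 (SE 0.66, adjusted p = 0.0847), and by 3.45 (adjusted p = 0.00605) without yolk sac replicate 1.

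Acta1, the skeletal alpha-actin, was 4.56 on both heart tube arrays, 4.79 and 4.73 in caudal-half cells, and 4.85 and 4.43 in yolk sac cells. Its difference between heart tube and caudal-half tissue was -0.20 (SE 0.19, adjusted p = 0.644), with a 95% interval from -0.66 to 0.27. A doubling of the signal lay outside the interval, but the levels lay only just above the bacterial range, so a doubling of the RNA is not excluded. Acta2, the smooth muscle alpha-actin, which early heart muscle also uses, was 8.46 and 8.23 in heart tube cells, 8.43 and 8.55 in caudal-half cells, and 9.5 and 9.07 in yolk sac cells. It was lower in heart tube cells than in yolk sac cells by a difference of -0.94 (SE 0.21, adjusted p = 0.0347). That call was lost on leaving out any array but yolk sac replicate 2 (adjusted p up to 0.171), and the mean of its 3 probe sets gave -0.29 (adjusted p = 0.508). Actg2, the enteric smooth muscle actin, stayed within the bacterial range on all 6 arrays.

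Myosin heavy chains are the motors of the thick filament. Myh6, the alpha cardiac chain typical of the atria and of the adult mouse ventricle, was 6.39 and 6.85 in heart tube cells, 2.19 and 4.04 in caudal-half cells, and 3.96 and 2.90 in yolk sac cells. The other tissues lay in the bacterial range or just above it, and neither overlapped with the heart tube. The difference was 3.51 (SE 0.63, adjusted p = 0.0282) from the caudal-half tissue and 3.20 (SE 0.63, adjusted p = 0.0227) from the yolk sac. The first call was lost without either heart tube replicate or caudal-half replicate 1 (adjusted p up to 0.146). The second was lost without either heart tube replicate or yolk sac replicate 2 (adjusted p up to 0.117).

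Myh7, the beta chain that dominates the embryonic mouse ventricle, was 7.97 and 7.88 in heart tube cells, 5.86 and 5.09 in caudal-half cells, and 5.88 and 6.13 in yolk sac cells. The heart tube exceeded the others by 2.45 (SE 0.28, adjusted p = 0.00549) and by 1.92 (SE 0.28, adjusted p = 0.0076). The call against the yolk sac was lost without heart tube replicate 1 (adjusted p = 0.0535). A second probe set annotated to Myh6 alone lay in the bacterial range on all arrays. Its differences of 0.56 and 0.95 were not called (adjusted p = 0.61 and 0.287 over all named probe sets). Myh6 and Myh7 are close copies, and 2 further probe sets are annotated to both. The brighter of these read 7.0 and 6.65 in heart tube cells, 5.86 and 5.60 in caudal-half cells, and 6.14 and 5.38 in yolk sac cells, so the heart tube was highest there as well.

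Myh3, the embryonic skeletal chain, differed widely between replicates of the embryonic tissues, at 5.35 and 4.30 in heart tube cells, 5.48 and 4.40 in caudal-half cells, and 4.19 and 4.60 in yolk sac cells. The heart tube and caudal-half tissue differed by -0.11 (SE 0.46, adjusted p = 0.929). Myh11, the smooth muscle chain, was 5.04 and 4.84 in heart tube cells, 5.03 and 5.04 in caudal-half cells, and 6.20 and 4.89 in yolk sac cells. It differed by -0.10 (SE 0.40, adjusted p = 0.928) from caudal-half tissue and by -0.61 (adjusted p = 0.393) from yolk sac, and by -1.26 (adjusted p = 0.0266) from the latter without yolk sac replicate 2.

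Light chains brace the myosin lever arm, and the regulatory ones tune it. Myl2, the ventricular regulatory chain, was 7.32 and 6.93 in heart tube cells, 4.40 and 3.90 in caudal-half cells, and 3.83 and 4.02 in yolk sac cells. Heart tube cells held more by 2.97 (SE 0.24, adjusted p = 0.00153) and 3.20 (SE 0.24, adjusted p = 0.000661). Myl7, the atrial regulatory chain that the whole early heart tube uses, was 8.01 and 8.05 in heart tube cells, 4.72 and 3.96 in caudal-half cells, and 4.63 and 4.14 in yolk sac cells. The differences were 3.69 (SE 0.30, adjusted p = 0.00151) and 3.64 (SE 0.30, adjusted p = 0.000886). For both regulatory chains the tissues outside the heart lay near the upper end of the bacterial range.

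Essential chains bind the lever arm beside the regulatory ones. Myl4, the atrial and fetal essential chain, was 7.48 and 7.43 in heart tube cells, 5.33 and 6.34 in caudal-half cells, and 5.54 and 6.46 in yolk sac cells. The heart tube arrays were above all others, yet the differences of 1.62 (SE 0.41, adjusted p = 0.0842) and 1.45 (SE 0.41, adjusted p = 0.0733) were not called. Myl3, the ventricular essential chain, overlapped between heart tube (6.26 and 6.13) and yolk sac (6.29 and 5.70), with 5.97 and 5.50 in caudal-half cells. Another of its probe sets, not the one that stands for it here, was higher in heart tube cells than in caudal-half cells by 1.36 (adjusted p = 0.0361 over all named probe sets). Myl1, the fast skeletal essential chain, stayed in the bacterial range on all arrays, at 3.09 and 2.93 in heart tube cells, 3.48 and 3.65 in caudal-half cells, and 2.38 and 2.31 in yolk sac cells. Its difference of 1.22 between caudal-half tissue and yolk sac (SE 0.17, adjusted p = 0.00905) therefore rests on weak signal, and the call was lost without caudal-half replicate 2 (adjusted p = 0.0542).

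Myl9, the regulatory chain of smooth muscle and of many non-muscle cells, had a different order, at 8.39 and 8.79 in caudal-half cells against 7.64 and 7.55 in heart tube cells and 7.52 and 7.45 in yolk sac cells. It was higher in caudal-half cells than in heart tube cells, with a heart tube minus caudal-half difference of -0.99 (SE 0.19, adjusted p = 0.0377). Leaving out any 1 array ended that call (adjusted p up to 0.176). The caudal-half tissue exceeded the yolk sac by 1.10 (SE 0.19, adjusted p = 0.0198), a call lost without caudal-half replicate 2 or either yolk sac replicate (adjusted p up to 0.083).

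**Figure D3:**
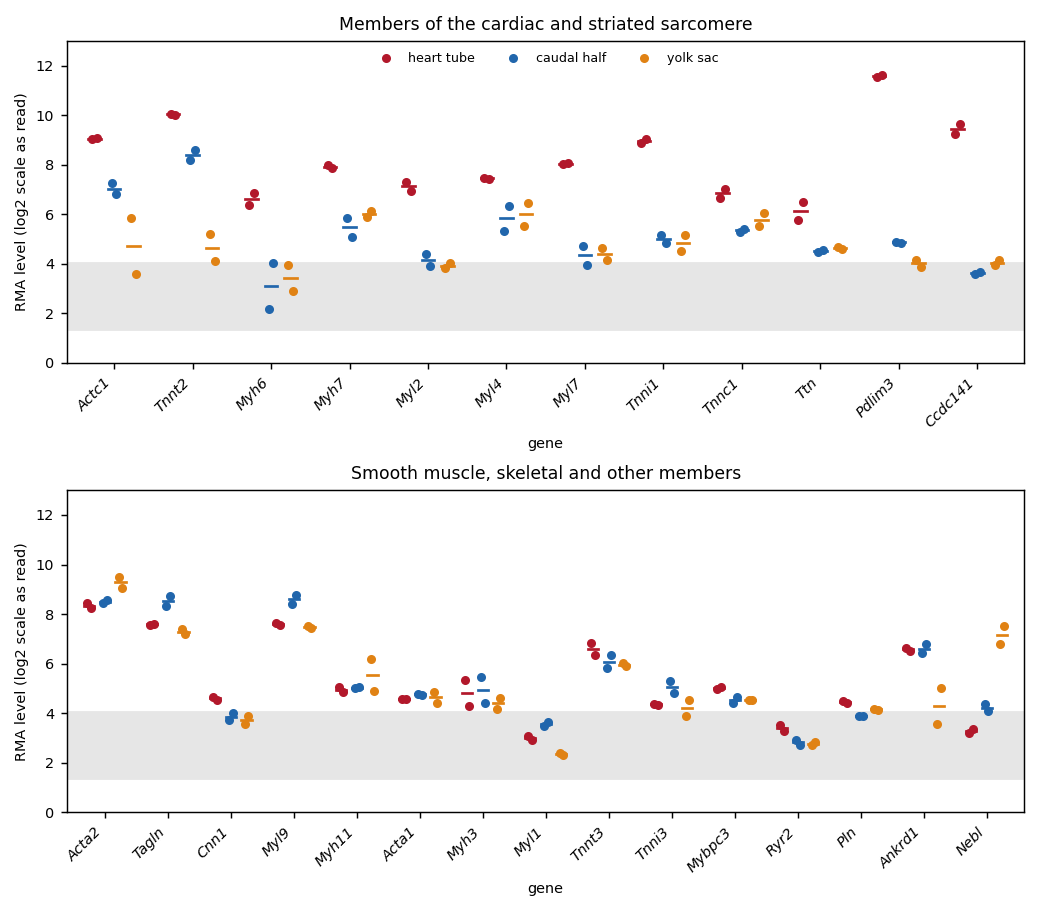
Levels of selected members on each array (dots; lines mark the mean of the 2 arrays of a tissue), on the scale read as log2, with the bacterial control range of 1.33 to 4.03 as a grey band. Pdlim3, Tnni1 and Myl7 are high in heart tube cells only, Tnnt2 falls from heart tube to caudal-half tissue to yolk sac, and Nebl is highest in yolk sac cells.

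The troponin complex carries the calcium switch. Tnnt2, the cardiac troponin T that anchors the complex to tropomyosin, descended through the tissues without overlap, from 10.05 and 10.02 in heart tube cells to 8.20 and 8.61 in caudal-half cells and 5.19 and 4.12 in yolk sac cells. Heart tube and yolk sac differed by 5.38 (SE 0.35, adjusted p = 0.000405), and caudal-half tissue and yolk sac by 3.75 (SE 0.35, adjusted p = 0.00253). The step from caudal-half tissue to heart tube, 1.63 (SE 0.35, 95% interval 0.78 to 2.48), just missed the threshold (adjusted p = 0.0523). It passed with the mean of all 3 of its probe sets (adjusted p = 0.018).

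Tnni1, slow skeletal troponin I, which is also the inhibitory subunit of the embryonic heart, was 8.89 and 9.04 in heart tube cells, 5.15 and 4.84 in caudal-half cells, and 4.53 and 5.15 in yolk sac cells. It was higher in heart tube cells by 3.97 (SE 0.25, adjusted p = 0.000729) and 4.12 (SE 0.25, adjusted p = 0.000298). Tnni3, the cardiac troponin I that replaces it as the heart matures, was 4.37 and 4.35 in heart tube cells, 5.30 and 4.83 in caudal-half cells, and 3.87 and 4.52 in yolk sac cells. Its difference from the caudal-half tissue was -0.71 (SE 0.27, adjusted p = 0.224), with a 95% interval from -1.36 to -0.05.

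Tnnc1, the calcium-binding subunit of heart and slow muscle, was 6.67 and 7.03 in heart tube cells, 5.29 and 5.41 in caudal-half cells, and 5.53 and 6.03 in yolk sac cells. The heart tube was higher by 1.51 (SE 0.23, adjusted p = 0.0176) and 1.07 (SE 0.23, adjusted p = 0.0321). The first call was lost without any 1 of the heart tube or caudal-half arrays (adjusted p up to 0.105), the second without any array but yolk sac replicate 2 (adjusted p up to 0.162). Tnnt3, fast skeletal troponin T, was 6.83 and 6.34 in heart tube cells, 5.83 and 6.33 in caudal-half cells, and 6.04 and 5.89 in yolk sac cells, and was not called (differences 0.50 and 0.62, adjusted p = 0.341 and 0.182). Nor were the other fast and slow skeletal subunits: Tnnc2 lay between 4.34 and 5.09 on the arrays, Tnni2 between 4.95 and 5.41, and Tnnt1 between 6.84 and 7.45.

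Tropomyosins lie along actin in every cell type. Tpm1 lay between 11.95 and 12.38 on all 6 arrays and was not called. With an intensity trend and robust variance, its heart tube minus caudal-half difference of -0.32 was called (adjusted p = 0.0381). Another of its 4 probe sets was higher in caudal-half cells than in yolk sac cells by 1.04 (adjusted p = 0.0376 over all named probe sets). Tpm2 was 6.84 and 7.53 in heart tube cells, 7.65 and 7.80 in caudal-half cells, and 8.71 and 8.33 in yolk sac cells. It was lower in heart tube cells than in yolk sac cells, with a difference of -1.34 (SE 0.27, adjusted p = 0.025). The call was lost without heart tube replicate 1 or either yolk sac replicate (adjusted p up to 0.11), and with the mean of its 4 probe sets, which gave -0.77 (adjusted p = 0.127).

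Titin, encoded by Ttn, is the elastic filament that sets the length of the sarcomere. Its level was 5.76 and 6.51 in heart tube cells, 4.46 and 4.56 in caudal-half cells, and 4.67 and 4.59 in yolk sac cells, higher in heart tube cells by 1.62 (SE 0.26, adjusted p = 0.0195) and 1.5 (SE 0.26, adjusted p = 0.0145). The call against the caudal-half tissue was lost without heart tube replicate 2 or either caudal-half replicate (adjusted p up to 0.114), that against the yolk sac without either yolk sac replicate (adjusted p up to 0.0636). Only 2 of its 6 probe sets were called higher in heart tube cells, and the mean of all 6 ended both calls, with 0.39 against the caudal-half tissue (adjusted p = 0.193) and 0.54 against the yolk sac (adjusted p = 0.0563).

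Ccdc141, a coiled-coil protein known to bind myosin II whose gene lies next to Ttn in RefSeq, had one of the widest gaps. It was 9.25 and 9.63 in heart tube cells, 3.57 and 3.67 in caudal-half cells, and 3.96 and 4.14 in yolk sac cells. The heart tube was higher by 5.82 (SE 0.19, adjusted p = 0.000114) and 5.40 (SE 0.19, adjusted p = 8.31e-05). All 6 of its probe sets were called higher in both comparisons, with differences from 3.74 to 5.88 and from 3.93 to 5.40. The sizes are uncertain, since the probe set that stands for the gene lay in the bacterial range on both caudal-half arrays and on yolk sac replicate 1.

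Mybpc3, the cardiac myosin-binding protein C, was 4.97 and 5.06 in heart tube cells, 4.41 and 4.67 in caudal-half cells, and 4.55 and 4.52 in yolk sac cells. The heart tube arrays were the highest, but the differences of 0.47 (SE 0.17, adjusted p = 0.206) and 0.48 (SE 0.17, adjusted p = 0.137) were not called. Myom1, which crosslinks myosin at the M-band, was 5.66 and 5.20 in heart tube cells, 5.53 and 5.26 in caudal-half cells, and 3.85 and 4.58 in yolk sac cells. It was higher in heart tube cells than in yolk sac cells by 1.21 (SE 0.30, adjusted p = 0.0471), a call lost on leaving out any array but yolk sac replicate 2 (adjusted p up to 0.216). Myom2, the adult fast-muscle and heart form, stayed within the bacterial range.

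At the Z-disc, Pdlim3, a PDZ and LIM protein that binds alpha-actinin, had the widest difference of all members. It was 11.53 and 11.61 in heart tube cells, 4.88 and 4.85 in caudal-half cells, and 4.14 and 3.89 in yolk sac cells. On the log2 reading the heart tube was 104-fold above the caudal-half tissue (difference 6.71, SE 0.17, adjusted p = 6.57e-05). It was higher than the yolk sac by 7.55 (SE 0.17, adjusted p = 2.45e-05), a size that is uncertain since the yolk sac mean lay in the bacterial range. The caudal-half tissue exceeded the yolk sac by 0.85 (SE 0.17, adjusted p = 0.0306), which no leave-one-out fit kept (adjusted p up to 0.125).

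Its relative Pdlim5, which is found in many tissues, ran the other way, at 8.03 and 8.10 in heart tube cells, 9.14 and 9.10 in caudal-half cells, and 9.55 and 9.44 in yolk sac cells. The heart tube differed by -1.06 (SE 0.16, adjusted p = 0.0158) from the caudal-half tissue and by -1.44 (SE 0.16, adjusted p = 0.00279) from the yolk sac. The first call was lost without any 1 of the heart tube or caudal-half arrays (adjusted p up to 0.107). Of its 7 probe sets, 2 were called lower against the caudal-half tissue and 5 against the yolk sac. The mean of all 7 gave -0.60 against the caudal-half tissue, which was not called (adjusted p = 0.079).

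Nebl encodes nebulette, a cardiac relative of nebulin, and through other exons a LIM protein found outside muscle. It was low in heart tube cells at 3.20 and 3.38, higher in caudal-half cells at 4.37 and 4.08, and highest in yolk sac cells at 6.81 and 7.50. The heart tube minus yolk sac difference was -3.87 (SE 0.26, adjusted p = 0.000455), and that of caudal-half tissue minus yolk sac -2.93 (SE 0.26, adjusted p = 0.00222). The heart tube arrays lay in the bacterial range, which leaves the size of the first difference uncertain. Its probe sets disagreed: a second was lower in heart tube cells than in yolk sac cells by a difference of -1.55, while another, within the bacterial range on all arrays, was higher by 1.13.

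**Figure D4:**
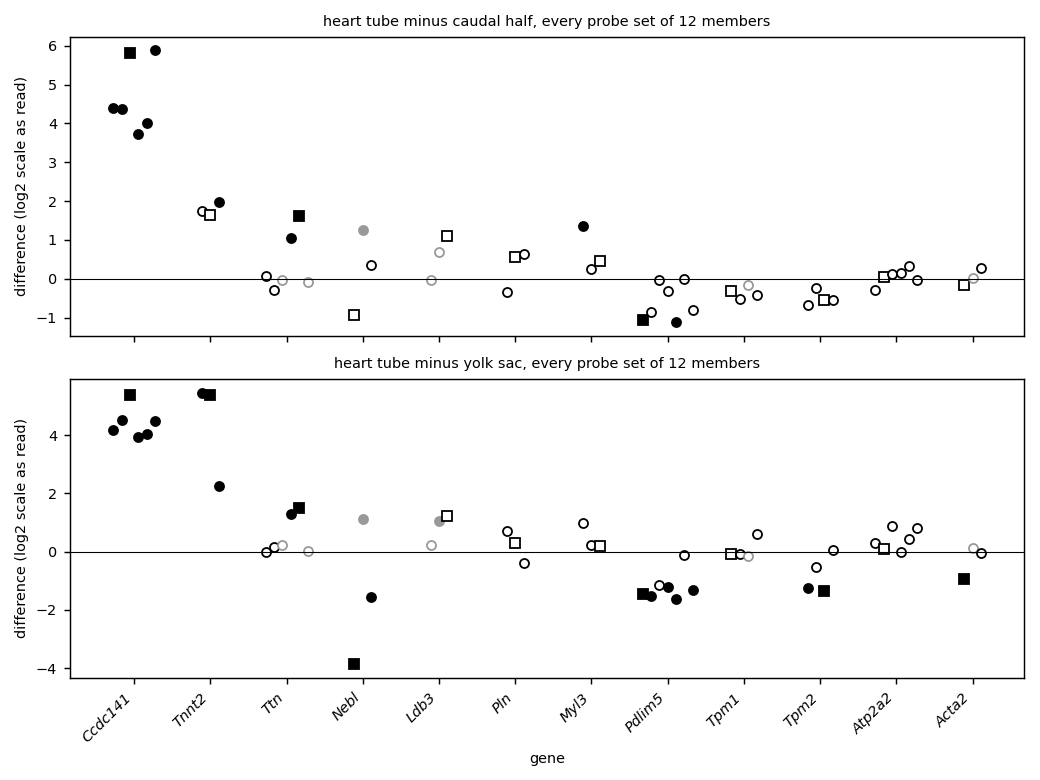
Differences of the single probe sets of members with several, on the scale read as log2; squares mark the probe set that stands for the gene, filled symbols are called over all named probe sets, and grey ones lie within the bacterial range on all arrays. All 6 probe sets of Ccdc141 lie above 0 and all 7 of Pdlim5 below it in both panels, whereas those of Ttn and Nebl lie on both sides.

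Ankrd1, a stress-responsive ankyrin repeat protein best known from the heart, overlapped between heart tube (6.65 and 6.53) and caudal-half tissue (6.42 and 6.79) and was lower in yolk sac cells (3.55 and 5.01). The heart tube exceeded the yolk sac by 2.31 (SE 0.45, adjusted p = 0.0219), and the caudal-half tissue by 2.33 (SE 0.45, adjusted p = 0.0267). The first call was lost without either heart tube replicate (adjusted p up to 0.111), the second without any 1 of the heart tube or caudal-half arrays (adjusted p up to 0.125). Between heart tube and caudal-half tissue the difference was -0.02 (SE 0.45, adjusted p = 0.99).

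Des, the intermediate filament of muscle, was 5.87 and 6.13 in heart tube cells, 5.03 and 5.23 in caudal-half cells, and 5.13 and 5.15 in yolk sac cells. The heart tube stood above the other tissues, which overlapped. It was higher in heart tube cells by 0.87 (SE 0.18, adjusted p = 0.0455) and 0.85 (SE 0.18, adjusted p = 0.0284). The first call was lost in every leave-one-out fit (adjusted p up to 0.21) and the second without any 1 of the heart tube or yolk sac arrays (adjusted p up to 0.153). Both were also lost with the mean of its 2 probe sets, which gave 0.37 (adjusted p = 0.196) and 0.20 (adjusted p = 0.416). The second probe set lay in the bacterial range on all arrays, with differences of -0.12 and -0.46. Ldb3, which binds alpha-actinin at the Z-disc, was 6.19 and 5.53 in heart tube cells, 5.01 and 4.53 in caudal-half cells, and 4.52 and 4.78 in yolk sac cells. It was higher than in yolk sac cells by 1.21 (SE 0.28, adjusted p = 0.041), lost on leaving out any array but heart tube replicate 2 (adjusted p up to 0.178), and its difference of 1.09 from the caudal-half tissue was not called (adjusted p = 0.0898).

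The remaining Z-disc members were not called in any comparison. Actn2, the alpha-actinin of striated muscle, was 5.03 and 4.69 in heart tube cells, overlapping with the caudal-half tissue (4.30 and 4.97) and above the yolk sac (4.51 and 3.52). Csrp3, the muscle LIM protein, was highest on the heart tube arrays (5.40 and 5.57, against 4.51 to 4.98 elsewhere), with differences of 0.86 (adjusted p = 0.0609) and 0.67 (adjusted p = 0.0817). Tcap, which caps titin at the Z-disc, lay between 4.24 and 4.66. Smpx, a small muscle protein, and Xirp1, an actin-binding one, stayed within the bacterial range.

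The actin-binding proteins of smooth muscle had other orders of the tissues. Tagln, or SM22, an early smooth muscle marker also made by embryonic heart and by other contractile cells, was 7.56 and 7.62 in heart tube cells, 8.32 and 8.75 in caudal-half cells, and 7.41 and 7.18 in yolk sac cells. The caudal-half tissue exceeded the yolk sac by 1.24 (SE 0.21, adjusted p = 0.0171), a call lost without caudal-half replicate 2 or either yolk sac replicate (adjusted p up to 0.0741). Against the heart tube the difference of -0.94 (SE 0.21) fell just outside the threshold (adjusted p = 0.0548). Cnn1, calponin, which damps actomyosin, was 4.67 and 4.54 in heart tube cells, 3.71 and 3.99 in caudal-half cells, and 3.56 and 3.87 in yolk sac cells, in the bacterial range outside the heart. The heart tube was higher than the yolk sac by 0.89 (SE 0.20, adjusted p = 0.033), lost without any 1 of the heart tube or yolk sac arrays (adjusted p up to 0.162), and by 0.76 (SE 0.20, adjusted p = 0.0895) than the caudal-half tissue.

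Of the 5 members of the sarcoplasmic reticulum, the calcium store of muscle, 0 were called in any comparison by limma, with 2, 1 and 0 at an unadjusted p under 0.05. Of all 18193 genes, 3556, 4734 and 4337 had an unadjusted p under 0.05 in the same 3 comparisons. Ryr2, the cardiac calcium release channel, was 3.54 and 3.29 in heart tube cells, 2.92 and 2.73 in caudal-half cells, and 2.70 and 2.82 in yolk sac cells. All of these lie in the bacterial range, and the difference from the caudal-half tissue was 0.59 (SE 0.18, adjusted p = 0.14). Pln, phospholamban, the brake on the calcium pump, was 4.48 and 4.43 in heart tube cells, 3.88 and 3.89 in caudal-half cells, and 4.19 and 4.12 in yolk sac cells. On this probe set the heart tube arrays were the highest, with a difference of 0.57 (SE 0.16, 95% interval 0.20 to 0.95, adjusted p = 0.102) from the caudal-half tissue. Its other probe sets gave other orders. The highest array was caudal-half replicate 1 in 1 of them (5.53, against 4.66 and 3.76 in heart tube cells). In the other it was yolk sac replicate 2 (5.25, against 4.21 on both heart tube arrays). Atp2a2, the pump itself, which non-muscle cells use too, lay between 10.68 and 10.88 on the 6 arrays. Casq2, the calcium-storing calsequestrin, was 4.09 and 5.17 in heart tube cells and overlapped with both other tissues, and Sln, a second regulator of the pump, stayed within the bacterial range.

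Across the members, 7 stayed within the bacterial range on all arrays (Actg2, Myl1, Myom2, Smpx, Xirp1, Ryr2 and Sln) and 26 were above it on all arrays. The mean level lay in that range for 8 members in heart tube cells, 11 in caudal-half cells and 12 in yolk sac cells. The summed level of the 19 cardiac members was 117.7 and 119.3 in heart tube cells, 92.3 and 91.5 in caudal-half cells, and 88.1 and 87.2 in yolk sac cells. For the 6 smooth muscle members it was 36.1 and 35.6, 36.4 and 38.4, and 37.6 and 35.9, the yolk sac overlapping with both other tissues.

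Other muscle genes came from lists that hold no member. For these lists and those further below, the shares of all genes called either way serve as the scale. They were 5.51% for heart tube against caudal-half tissue, 11.8% for heart tube against yolk sac and 9.08% for caudal-half tissue against yolk sac. Of 41 measured genes of the sarcomere and muscle cytoskeleton, 3 were higher in heart tube cells than in caudal-half cells and none lower, with a median difference of -0.13. They were Lmod2 (3.19), a nucleator of cardiac thin filaments, the small heat shock protein Cryab (2.79) and the actin-bundling Synpo2 (0.97). Relative to yolk sac cells, Lmod2 (2.81), Fhl2 (1.74), Neb (1.17) and Fhod3 (1.13) were higher and Unc45b (-0.92) lower, where Fhod3 lay in the bacterial range on all arrays. Lmod2 was 6.66 and 6.46 in heart tube cells and within the bacterial range on the 4 other arrays. The caudal-half tissue exceeded the yolk sac in Neb (1.35) and Fhl2 (1.24) and was below it in Cryab (-3.46). In these 3 comparisons 7.32%, 12.2% and 7.32% of this list were called either way, near the shares of all genes.

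Among 20 other genes of smooth muscle contraction, 2 were higher in heart tube cells than in caudal-half cells (Tns1, 1.64, and Tagln2, 1.22) and 1 lower (Mylk, -2.36). Mylk encodes the kinase that phosphorylates the regulatory light chain. In the comparison with yolk sac cells none was higher and 5 were lower, led by the integrin gene Itga8 (-3.42) and Mylk (-3.17), and the caudal-half tissue was lower than the yolk sac in 4, led by Itga8 (-3.98) and Tns1 (-2.14). Mylk was 5.75 and 5.84 in heart tube cells, 8.10 and 8.20 in caudal-half cells, and 8.89 and 9.04 in yolk sac cells. Of 20 further calcium-handling genes and channels, Kcnj2 (1.48) and Cacna1h (1.09) were higher in heart tube cells than in caudal-half cells and Cacna1g (-1.15) was lower. Against the yolk sac, Cacna1h (1.26), Casq1 (1.22) and Kcnj2 (1.11) were higher and Camk2d (-1.31) lower, and Camk2d was also lower in caudal-half cells than in yolk sac cells (-1.48). Of 12 genes of muscle energy and oxygen supply, 0 were called by limma in any comparison, with 2, 4 and 3 at an unadjusted p under 0.05. Of all 18193 genes, 3556, 4734 and 4337 were under that unadjusted limit.

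Genes that mark heart muscle and its precursors were divided. Of 17 measured cardiac transcription factors and hormones, 5 were higher in heart tube cells than in caudal-half cells (Tbx20, 6.51, Gata4, 5.82, Hand2, 4.25, Tbx5, 3.20, and Gata6, 2.66) and Mef2c was lower (-0.98), with a median of 0.02 over the list. Relative to yolk sac cells, 7 were higher and none lower, led by Hand2 (4.92) and Gata4 (4.90), and the caudal-half tissue had 2 higher and 2 lower than the yolk sac, led by Tbx20 (-3.76). Their summed level was 125.3 and 125.7 in heart tube cells, 104.1 and 101.0 in caudal-half cells, and 103.5 and 104.2 in yolk sac cells. Some of these factors are also known from endocardium or its mesenchyme. Nkx2-5, a defining factor of heart muscle, lay in the bacterial range on all 6 arrays, at 3.33 and 3.01 in heart tube cells and 3.30 to 3.71 elsewhere. Nppa, the atrial hormone, was 5.53 and 4.02 in heart tube cells and 2.58 to 3.39 elsewhere, and its differences were not called (adjusted p = 0.183 and 0.0602). Myocd, the coactivator of serum response factor in heart and smooth muscle, was 4.39 and 5.38 in heart tube cells and 3.43 to 3.89 elsewhere (adjusted p = 0.106 and 0.0579), and Srf itself lay between 8.81 and 9.51. The share of heart muscle cells in the sorted fraction, and its part in these results, was not tested.

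**Figure D5:**
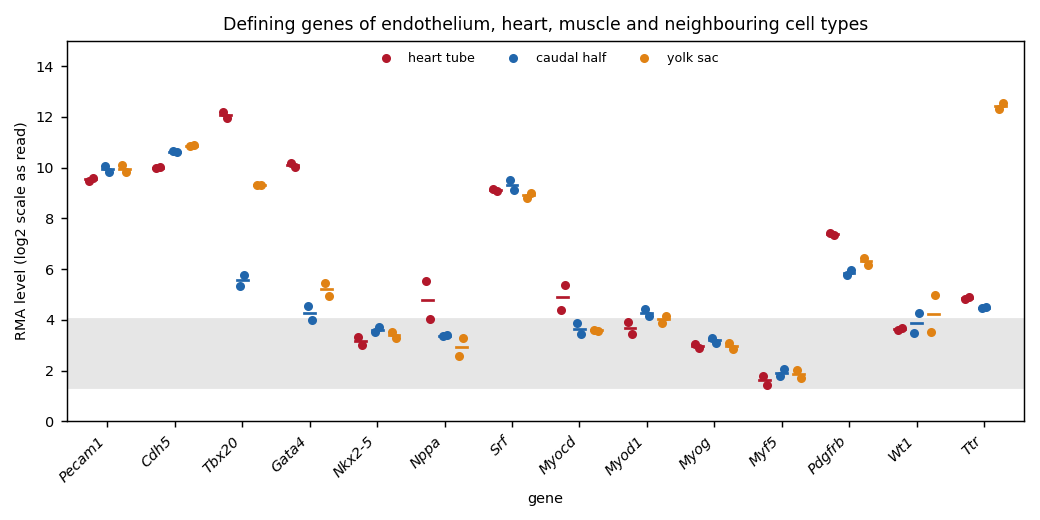
Levels of genes that define cell types on each array (dots; lines mark the mean of the 2 arrays of a tissue), on the scale read as log2, with the bacterial control range of 1.33 to 4.03 as a grey band. Pecam1 and Cdh5 are high in all tissues, Nkx2-5 lies in the band, and Tbx20 and Gata4 are highest in heart tube cells.

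The 12 endothelial markers had means above the bacterial range in every tissue. Their summed level was 108.1 and 109.2 in heart tube cells, 117.9 and 118.7 in caudal-half cells, and 121.3 and 122.2 in yolk sac cells. Pecam1, which encodes CD31, lay between 9.49 and 10.09 on the arrays. Cdh5, the endothelial cadherin, was 9.97 and 10.03 in heart tube cells and 10.85 and 10.88 in yolk sac cells (difference -0.87, adjusted p = 0.0166). Cldn5, of endothelial tight junctions, was lower in heart tube cells by differences of -3.40 and -3.54 (adjusted p = 0.00131 and 0.000612), at 6.40 and 7.14 against 10.11 to 10.32 elsewhere. Robo4, an endothelial guidance receptor, had differences of -2.31 and -2.87 (adjusted p = 0.00629 and 0.00155), at 5.80 and 5.20 against 7.69 to 8.59 elsewhere. Of the list, 1 was higher and 5 lower in heart tube cells than in caudal-half cells, and none higher and 7 lower than in yolk sac cells. Against the caudal-half tissue 2 of the 12 differences were positive, those of Eng and Tek. Eng was 9.25 and 9.26 in heart tube cells and 8.27 and 8.32 in caudal-half cells. Tek was 11.33 and 11.53 in heart tube cells and 10.54 and 10.77 in caudal-half cells. The caudal-half tissue had 1 higher and 2 lower than the yolk sac.

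Markers of cells that a gate on CD31 should largely remove also differed between tissues. Of 10 mesenchymal genes, 6 were higher in heart tube cells than in caudal-half cells, led by Tcf21 (4.08) and Col3a1 (3.53), and none was lower. Against the yolk sac 3 were higher and 4 lower, led by Lum (-5.70), and the caudal-half tissue had 2 higher and 6 lower than the yolk sac. Their summed level was 74.0 on both heart tube arrays, 58.3 and 57.5 in caudal-half cells, and 76.1 and 74.2 in yolk sac cells. Of 8 pericyte and mural genes, Rgs5 (2.58), Pdgfrb (1.52) and Notch3 (1.04) were higher in heart tube cells than in caudal-half cells and Abcc9 (-3.76) lower. The same 4 genes were called in the same directions against the yolk sac, and between caudal-half tissue and yolk sac 1 was higher (Notch3, 1.46) and 1 lower (Rgs5, -1.19), while the summed level stayed between 39.2 and 41.8 on all arrays. The 7 visceral endoderm genes summed to 72.6 and 72.0 in yolk sac cells and to 30.7 to 33.0 elsewhere, with Ttr at a mean of 12.42 there, and all 7 were lower in heart tube cells and in caudal-half cells than in yolk sac cells. Rbp4 was also lower in heart tube cells than in caudal-half cells (-1.54).

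Among 11 skeletal myogenic factors, 8 had a mean in the bacterial range in heart tube cells, 7 in caudal-half cells and 9 in yolk sac cells, and Myog and Myf5 lay there on all arrays. The list summed to 36.6 on both heart tube arrays, 41.1 and 39.9 in caudal-half cells, and 34.8 and 33.4 in yolk sac cells. Myod1 was 4.42 and 4.15 in caudal-half cells, 3.93 and 3.44 in heart tube cells, and 3.89 and 4.15 in yolk sac cells, and was not called. The caudal-half tissue exceeded the yolk sac in Six4 (2.51), Tcf15 (1.77) and Meox1 (1.40), genes of the somites and early muscle. Six4 (2.73) was also higher in heart tube cells than in yolk sac cells, and 0 were called between heart tube and caudal-half tissue by limma, with 4 at an unadjusted p under 0.05. Between heart tube and caudal-half tissue, 3556 of all 18193 genes were under that unadjusted limit. The 6 epicardial genes, Wt1 included, all had heart tube means in the bacterial range, and only Upk3b was called, lower in heart tube cells (-4.04) and the caudal-half tissue (-3.37) than in yolk sac cells. Of 5 erythroid genes, 2 were lower in heart tube cells than in caudal-half cells and 3 lower than in yolk sac cells, with Klf1 (2.14) higher in the heart tube, and 4 were lower in caudal-half cells than in yolk sac cells. The part of these other cells in the differences of the muscle genes was not tested.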

How the data were processed

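RNA of sorted cells was measured on 6 Affymetrix arrays. Per the submitters' processing notes the authors used RMA (affy) to turn probe brightness into the deposited intensity of a probe set. Versions and filters: not stated there. Deposited intensities ran from 2.46 to 2172540. Since a 16-bit scanner ends at 65535, their natural log (0.899 to 14.6) was read as RMA log2 values, while the planned design had assumed log2 values in the file.

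Of 45101 probe sets, 64 were controls, 34945 others carried 1 gene symbol in the platform annotation, 932 carried several and 9211 none. The probe set with the highest mean represented each of the 18193 genes. The Pearson correlation was 0.981 to 0.986 between replicates and 0.946 to 0.969 between tissues. Tissue means were compared with limma 3.58.1 (lmFit, then eBayes; R 4.3.3) over all 6 arrays and no covariate, with 3 residual and 3.48 prior degrees of freedom. The 3 contrasts were tested two-sided, at a median standard error of 0.21 per difference. Precision is limited by the number of arrays. The fit was tested on simulated data.

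Alternatives covered the normalisation, the probe sets used, a filter on dim genes, limma's variance model, the replicate block, fits of 2 tissues and leaving out each array. The members and gene lists were chosen with earlier results of these data known. Full statistics go to called members and to the best known form of each role. From other lists, up to 4 called genes per comparison and fixed defining genes are named. Gata6, Mef2c, Unc45b, Rbp4 and Klf1 were named after their values were seen. Promoters are from RefSeq, build GRCm38.p6, and cover 37 members.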

Additional observations from a re-analysis of the deposited data

How the results depend on the processing

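No member difference that was called changed its direction under any alternative run. Over the member differences and alternatives, 1751 results kept their direction and their side of the threshold, 110 lost a call, 31 gained one and 61 changed sign without a call on either side. With each array left out in turn, the called members ranged from 6 to 12 (higher 6 to 11, lower 0 to 1) for heart tube against caudal-half tissue, from 9 to 16 (higher 7 to 13, lower 2 to 4) for heart tube against yolk sac, and from 2 to 6 (higher 1 to 4, lower 1 to 2) for caudal-half tissue against yolk sac. All genes called then ranged from 376 to 899, from 936 to 1794 and from 638 to 1155, against 1002, 2150 and 1652 with all arrays. Lower members of heart tube against caudal-half tissue, 2 in the fit reported, were 4 with an intensity trend and robust variance, 1 with a replicate block and 1 with only the arrays of both tissues. Those lower than in the yolk sac fell from 4 to 2 with the mean of all probe sets, and those of caudal-half tissue against yolk sac rose from 1 to 2 with the trend. The cause was not tested. Tagln was called lower for heart tube against caudal-half tissue in 5 alternatives, with adjusted p of 0.0309 to 0.0486. The replicate differences of the tissues correlated at 0.047, -0.007 and 0.019 over all genes, so no shift shared by replicate number was seen. That cannot show whether samples of the same number were collected together, which the labels do not state. With the replicate block 9, 19 and 6 members and 776, 1876 and 1356 of all genes were called. Taking log2 of the deposited value rescales only, so its results are not evidence of stability. The filter on dim genes left 13725 genes and 40 members.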
